A study of Mus musculus with 43 samples.

Results

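The annexins are a family of calcium-dependent, phospholipid-binding proteins, and 9 of their genes (Anxa1, Anxa2, Anxa3, Anxa4, Anxa5, Anxa6, Anxa7, Anxa8 and Anxa11) were followed by their symbols through both expression tables of the study. All 9 were present among the 13845 genes of the first table and the 13817 genes of the second, and all 9 passed the filter on low values in both. The genes were taken by symbol, and the list was drawn up with earlier results of these data known. Anxa9, Anxa10 and Anxa13 were also present in both tables but were only looked up for their levels. Each annexin carries a conserved core that docks on negatively charged membranes when calcium rises, and a variable amino-terminal tail that recruits partners such as S100 proteins. Annexins act in membrane repair, in exocytosis and endocytosis and in the linking of membranes to actin, and several of them are abundant in epithelial cells and the tumors that arise from them.

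All libraries came from PD798, a single mouse cell line grown out of pancreatic tumor tissue of a genetically engineered mouse model. The alleles of this model include p53 L/+, the Rosa YFP/YFP reporter and Pdx1-Cre, in which the Cre acts in the pancreatic lineage and yellow fluorescent protein marks the tumor cells. In the processing experiment, 12 libraries of bulk RNA were compared, 3 each from cells taken before sorting (Pre-FACS), cells sorted without enrichment (FACS-only), cells left in staining buffer (Mock) and cells passed through the magnetic and acoustic enrichment and then sorted (Pre-enriched). In the input series, 11 libraries of 1 sorted cell, 12 of 10 sorted cells and 6 of 100 sorted cells, all pre-enriched, stood beside 2 libraries of RNA extracted from the bulk line. All cells had grown in DMEM with 10% serum, the labels place every sample in normal mouse blood while the description of the processing conditions and of the bulk RNA does not, and no label names separate cultures, so p-values measure only the spread between these libraries.

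Values are TPM, an abundance scaled to a common total per library, which are corrected for gene length and can therefore be compared between genes. TPM keeps no record of depth, so no counting error could be given. In the processing experiment the genes of the table made up the full 1000000 TPM of each library, whereas in the input series they held 99.9% to 99.99% of it in bulk RNA, 93.5% to 99.98% in 10-cell pools and 54.2% to 99.99% in single cells. Of 10 listed epithelial genes, 9 were in the processing table and 10 in the input table, where they summed to 28514 and 29035 TPM in bulk RNA, most of it from keratins, and to 3463 to 30942 TPM in single cells. Single genes of this list went lower, with Cldn4 at 3.39 to 8.73 TPM and Cldn7 at 2.78 to 7.65 TPM in the processing libraries, and Epcam down to 0 and Muc1 at a median of 0 in single cells. Of 20 listed blood genes, 4 were in the processing table, where they summed to between 2.70 and 7.92 TPM, and 6 were in the input table, where they summed to 0 to 322 TPM in sorted libraries.

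Before any comparison of inputs, 7 libraries must be set apart. Single cells 6 and 9, 10-cell pools 5 and 12 and 100-cell pools 1 to 3 shared one expression profile, although their labels name 3 different inputs. The 7 were picked for an r of 0.96 or more, in log2(TPM + 1) across the genes tested, with a library of another input. They correlated with each other at r = 0.967 to 0.995, and none of them reached a higher r than 0.955 with any other library. Towards other inputs a value under 0.96 follows from the rule itself. Among libraries of the same input, 100-cell pools 4 to 6 correlated with each other at 0.974 to 0.9795 and the bulk libraries at 0.993. Single cell 6 correlated with 10-cell pool 5 at 0.995, whereas the other 9 single cells correlated among themselves at 0.537 to 0.730. Comparisons between inputs are therefore given with all libraries and again without these 7.

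The 9 genes lie on 7 autosomes (GRCm38, the assembly behind mm10), and 3 of them share chromosome 14. Anxa1 (ENSMUSG00000024659) spans chr19:20373428-20390944 on the minus strand, and Anxa2 (ENSMUSG00000032231) spans chr9:69453620-69491795 on the plus strand. Anxa3 (ENSMUSG00000029484) lies at chr5:96793339-96845966 (plus), Anxa4 (ENSMUSG00000029994) at chr6:86736840-86793584 (minus) and Anxa5 (ENSMUSG00000027712) at chr3:36448923-36475894 (minus). Anxa6 (ENSMUSG00000018340) lies at chr11:54979108-55033445 (minus), Anxa7 (ENSMUSG00000021814) at chr14:20455260-20480133 (minus), Anxa8 (ENSMUSG00000021950) at chr14:34085981-34100571 (plus) and Anxa11 (ENSMUSG00000021866) at chr14:25842156-25886804 (plus). All are protein-coding, and the longest coding transcript of each, from 1447 bases in Anxa2 to 2904 bases in Anxa7, was shorter than the median of 3038 bases over the genes tested in the input series. GC content of these transcripts ran from 43.6% in Anxa1 to 55.3% in Anxa11, with 5 of 9 above the median of 50.2%. Annotated genes overlap 7 of the 9, of which only A630023A22Rik (opposite Anxa8, at most 0.790 TPM) and 1500015L24Rik (opposite Anxa1, 0 to 39.7 TPM, median 0.476) had values, both in the input table.

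The promoters of Anxa1 and Anxa11, chosen after their values were seen, are shown because these genes were the highest and the lowest of these 9 annexins in bulk RNA of the input series and lay on opposite sides of it in the sorted pools. The sequences are those of RefSeq for GRCm38.p6, from 250 bases before to 50 bases after the start, which was found for 7 of the 9 genes. Capitals mark TATAAA, the TATA box, or GGGCGG, the core of the GC box, on either strand.
Anxa1 (chr19:20390622-20390921, minus strand): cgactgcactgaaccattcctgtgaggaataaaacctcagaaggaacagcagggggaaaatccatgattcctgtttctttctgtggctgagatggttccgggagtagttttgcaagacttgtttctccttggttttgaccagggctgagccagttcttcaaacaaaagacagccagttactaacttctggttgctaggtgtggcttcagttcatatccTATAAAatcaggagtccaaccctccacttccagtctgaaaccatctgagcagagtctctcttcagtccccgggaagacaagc
Anxa11 (chr14:25841905-25842204, plus strand): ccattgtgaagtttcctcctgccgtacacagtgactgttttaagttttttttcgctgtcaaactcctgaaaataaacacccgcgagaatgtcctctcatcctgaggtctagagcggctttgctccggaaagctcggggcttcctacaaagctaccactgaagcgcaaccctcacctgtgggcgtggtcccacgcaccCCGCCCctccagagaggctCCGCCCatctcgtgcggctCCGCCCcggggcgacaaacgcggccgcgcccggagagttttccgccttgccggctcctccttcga

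The Anxa1 window held 1 TATAAA, no GGGCGG and 3 CpG, and fewer CpG were counted in 23.3% of the 32851 promoters. The Anxa11 window held 3 GGGCGG (read here on the opposite strand as CCGCCC), no TATAAA and 25 CpG, and 81.6% of promoters had fewer. Over all promoters, 13.6% held TATAAA and 35.7% held GGGCGG on either strand. TGANTCA, the site of AP-1 factors, was searched as well and occurred in 7.81% of promoters and in neither of these windows. None of the matches overlap, and a match describes letters only.

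In the processing experiment, annexin RNA was abundant and nearly the same in every library. The 9 genes summed to between 9608 and 10198 TPM, 0.961% to 1.02% of all TPM, and Anxa1 to Anxa5 held 93.6% to 94.0% of that sum. Anxa2, which pairs with S100A10 at the inner face of the plasma membrane, was the highest with 2858 to 3173 TPM (median 2986). Anxa5, the phosphatidylserine-binding annexin used as a probe for dying cells, followed with 2227 to 2407 TPM (median 2360).

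Anxa4, an annexin of polarized epithelia, had 1631 to 1774 TPM (median 1737), and Anxa3, described in granule membranes of neutrophils, had 1408 to 1547 TPM (median 1497). Anxa1, which is induced by glucocorticoids and signals through formyl peptide receptors, had 689 to 767 TPM (median 736). From Anxa2 down to Anxa1 the ranges of neighbours in this order did not overlap. These 5 genes were all above at least 99.0% of the genes in the table.

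The lower annexins were a steep step down. Anxa6, whose core is duplicated and which recruits the Ras GTPase-activating protein Rasa1, had 224 to 245 TPM (median 233), and Anxa8, an annexin of squamous and tumor epithelium, had 197 to 240 TPM (median 218). The ranges of these neighbours overlapped, although Anxa6 was above Anxa8 in 11 of 12 libraries. Anxa7, or synexin, an early-described promoter of membrane fusion, had 112 to 135 TPM (median 125), and Anxa11, whose long tail binds ALG-2 and tethers RNA granules to lysosomes, had 26.7 to 38.6 TPM (median 36.7).

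**Figure D1:**
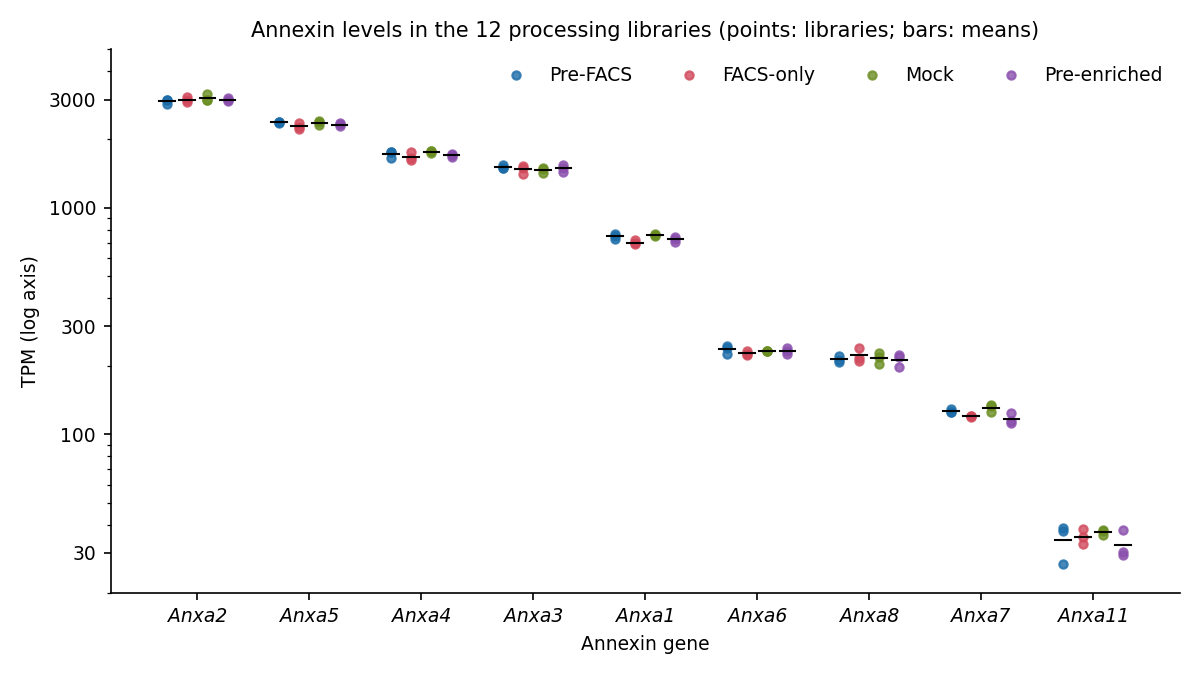
TPM (log axis) of each annexin in the 12 processing libraries, with points for libraries, colors for conditions and bars for condition means. The 4 conditions lie close together within each gene, from Anxa2 at 2858 to 3173 TPM down to Anxa11 at 26.7 to 38.6 TPM. Some do not overlap, such as Pre-enriched and Mock for Anxa7 and FACS-only and Mock for Anxa1.

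Whether sorting or enrichment alters expression is the question of this comparison. None of the 9 annexins passed limma's F test among the 4 conditions at an adjusted p of 0.05, beside 0.107% of the 12159 genes tested, and the lowest adjusted p was 0.657, for Anxa7. At an unadjusted p under 0.05 the F test marked 1 annexin (Anxa7, p = 0.0455) and 7.56% of all genes. The 6 pairs of conditions also gave 0 annexins each, beside 0.0493% of genes for Pre-enriched against Pre-FACS, 0.123% for FACS-only against Pre-FACS, 0.00822% for Mock against Pre-FACS and 0% for each of the other pairs. At an unadjusted p under 0.05, FACS-only against Mock marked 2 annexins (5.63% of all genes) and Pre-enriched against Mock marked 1 (7.77%). The other pairs marked 0 annexins, beside 9.18% of genes for Pre-enriched against Pre-FACS, 6.96% for FACS-only against Pre-FACS, 4.53% for Mock against Pre-FACS and 6.75% for Pre-enriched against FACS-only. In bulk RNA fewer cells with a transcript and less of it per cell cannot be told apart.

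Anxa7, Anxa1 and Anxa11 had the largest differences between conditions. Anxa7 was at 124, 115 and 112 TPM in Pre-enriched libraries and at 135, 125 and 133 TPM in Mock libraries. The groups did not overlap, and the difference in log2(TPM + 1) was -0.16 (95% interval -0.28 to -0.042, limma adjusted p = 0.521). Across the other settings tried, this difference lay between -0.20 and -0.13 with adjusted p from 0.346 to 0.776.

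Anxa1 was at 696, 719 and 689 TPM in FACS-only libraries and at 760, 767 and 747 TPM in Mock libraries. All FACS-only values were below all Mock values, with a difference of -0.11 (95% interval -0.20 to -0.021, limma adjusted p = 0.842, other settings 0.541 to 0.9995). Anxa11 was at 37.7, 30.3 and 29.4 TPM in Pre-enriched libraries against 37.9, 35.9 and 37.6 TPM in Mock. These groups overlapped, and the difference of -0.20 had the widest interval of the family, from -0.47 to 0.073 (limma adjusted p = 0.753, other settings 0.578 to 0.8995).

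The remaining 6 annexins had their largest difference between any conditions at 0.07 or less in size. It was -0.07 for Anxa4, -0.06 for Anxa5 and Anxa8, -0.05 for Anxa3 and Anxa6 and 0.05 for Anxa2, and the 95% intervals of these differences reached from -0.20 to 0.14. The median difference of the 9 genes ran from -0.05 (FACS-only against Mock) to 0.02 (Mock against Pre-FACS), beside -0.014 to 0.0035 for all genes tested. Of 30 listed partner and membrane-repair genes 26 were tested, and 0 were called among the 4 conditions.

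In the input series the annexins of bulk RNA stood in another order. Anxa1 was the highest with 3934 and 3904 TPM, ahead of Anxa2 with 3464 and 3472 TPM and Anxa3 with 2922 and 2964 TPM. Anxa4 had 996 and 990 TPM and Anxa5 had 679 and 710 TPM. Both libraries gave this same order, and no ranges of neighbours overlapped.

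Anxa6 had 188 and 196 TPM, Anxa7 had 128 and 139 TPM, Anxa8 had 93.0 and 108 TPM and Anxa11 had 60.7 and 51.9 TPM in bulk RNA. Set beside the processing libraries, Anxa7 was the one annexin whose ranges overlapped between the tables. The ratio of Anxa1 to Anxa5 was 5.50 and 5.79 in bulk RNA of the input series and 0.290 to 0.325 in the processing libraries. The tables were normalized separately, so no test was run between them. Of the other annexins, Anxa10 had 118 to 136 TPM in the processing libraries and 1.47 and 2.08 TPM in bulk RNA, Anxa13 had 23.5 to 40.9 TPM against 1.77 and 3.13 TPM and Anxa9 had 9.85 to 16.7 TPM against 4.85 and 5.32 TPM. Listed mesenchymal genes summed to 1612 to 1751 TPM in the processing libraries (9 of 10 in the table) and to 283 and 297 TPM in bulk RNA (8 of 10 in the table), and epithelial genes differed in both directions. Epcam had 32.1 to 38.9 TPM in the processing libraries and a median of 827 TPM in bulk RNA, while the medians were 4.74 and 578 TPM for Cldn7, 6.28 and 139 TPM for Cldn4 and 937 and 53.9 TPM for Muc1. The part of these genes in the annexin levels was not tested.

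**Figure D2:**
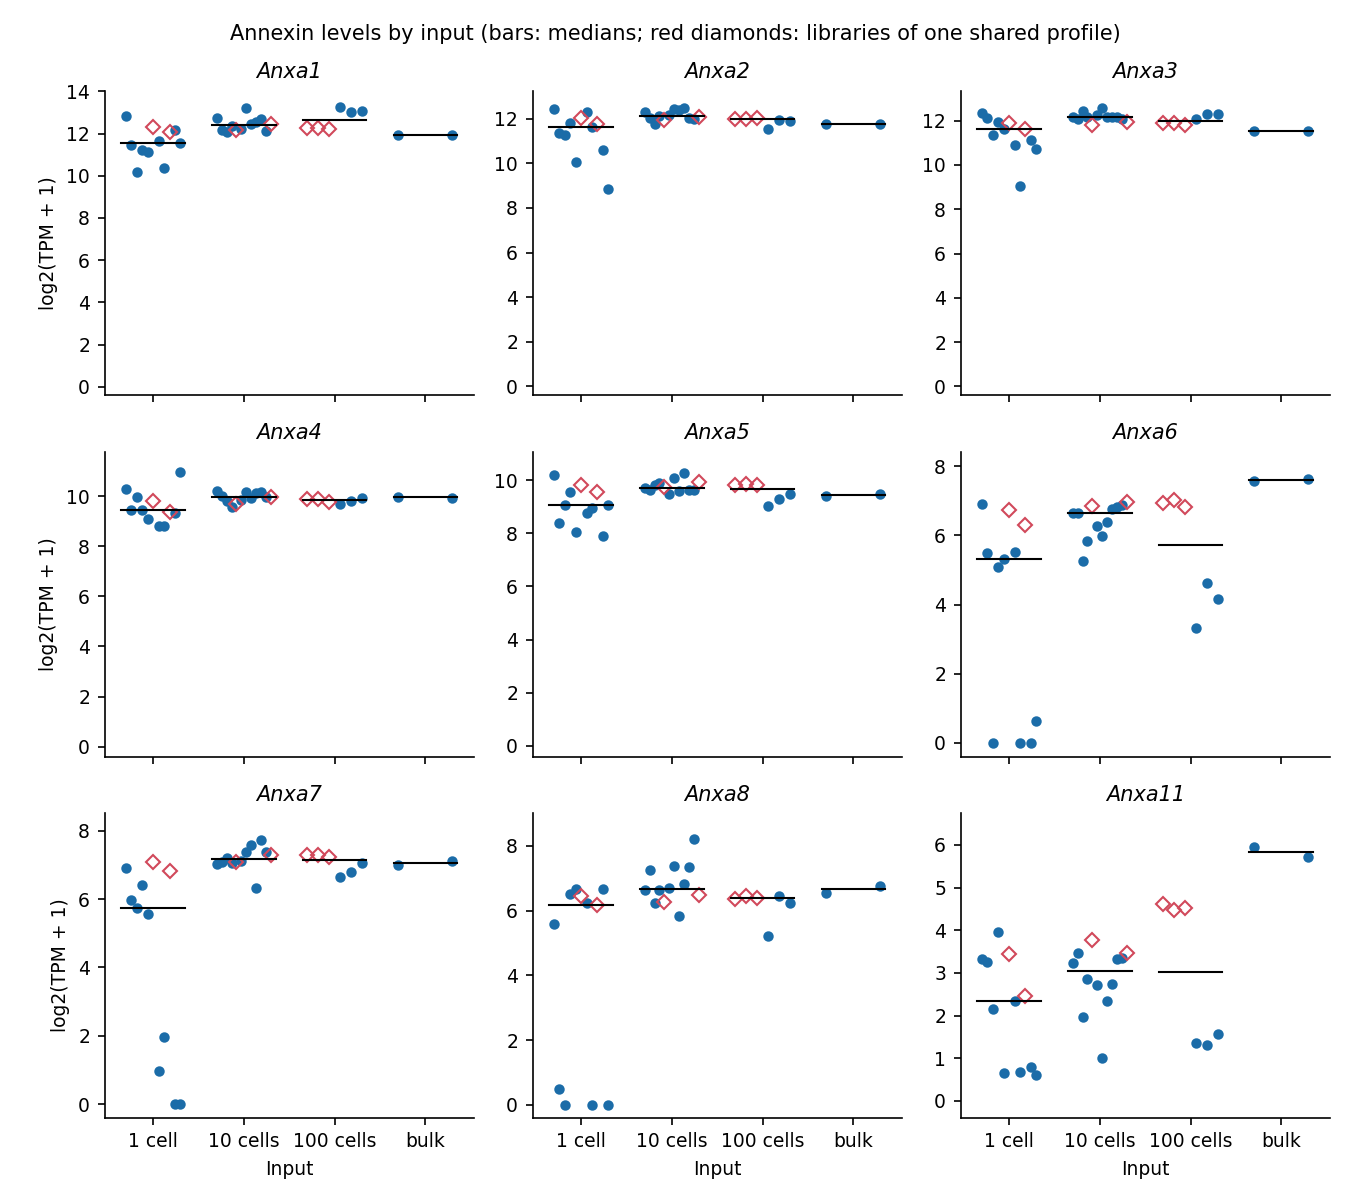
log2(TPM + 1) of each annexin by input, with a point for each library, bars for medians and red diamonds for the 7 libraries of one shared profile. Anxa1 to Anxa5 stay high in every library, Anxa6, Anxa7 and Anxa8 reach 0 in some single cells, and Anxa11 is at 51.9 and 60.7 TPM in bulk RNA but at 12.6 TPM or less in every 10-cell pool.

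The summed TPM of the 9 genes was 12466 and 12534 in bulk RNA, 14206 to 23814 in 10-cell pools, 14674 to 19404 in 100-cell pools and 5940 to 20867 in single cells. Without the 7 libraries it was 15174 to 23814 in 10-cell pools and 18427 to 19404 in 100-cell pools, with the same range in single cells. Pools of 10 or 100 cells thus all held more annexin TPM than bulk RNA, whereas single cells lay on both sides of it.

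In pools of 10 cells Anxa3 rose and Anxa11 fell against bulk RNA. Anxa3 ranged from 3533 to 6047 TPM over the 12 pools (median 4580), and every pool was above both bulk libraries. Its difference in log2(TPM + 1) was 0.64 (95% interval 0.29 to 0.99, limma adjusted p = 0.00541). Without the 7 libraries of one profile the difference was 0.70 (adjusted p = 0.000418), with pools between 4301 and 6047 TPM.

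Anxa11 ranged from 1.02 to 12.6 TPM (median 7.27), so that every pool was below both bulk libraries. The difference was -2.99 (95% interval -4.67 to -1.30, limma adjusted p = 0.00697) and -3.14 without the 7 libraries (adjusted p = 0.000238). The median pool held 7.74 times less TPM of Anxa11 than the bulk mean. Only 4.34% of genes tested had a lower difference.

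These 2 were the annexins called of 9 in that comparison, beside 39.4% of the 12325 genes tested (7.46% higher, 31.9% lower). Most genes were lower in the pools, with a median difference of -0.86 over all genes and 0.16 over the 9 annexins, and 7 of 9 annexins lay above the median of all genes. Quantile normalization moved the median of all genes to 0.13 and the calls from 19.0% higher and 81.0% lower to 54.8% higher and 45.2% lower. Under it 4 of 9 annexins lay above the median of all genes, Anxa3 was called at 0.45 and Anxa11 at -2.10. Without either bulk library no annexin was called (11% and 12.4% of genes were), although the differences stayed at 0.63 and 0.65 for Anxa3 (adjusted p = 0.0813 and 0.0700) and at -2.87 and -3.10 for Anxa11 (adjusted p = 0.0953 and 0.0723). These fits leave 1 bulk library, which is assumed to vary like the other groups. Over all alternative settings the adjusted p ran from 6.22e-08 to 0.185 for Anxa3 and from 1.55e-07 to 0.241 for Anxa11.

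Anxa6 had 37.6 to 124 TPM in the 10-cell pools (median 99.2), all below the 188 and 196 TPM of bulk RNA. The difference of -1.15 (95% interval -2.57 to 0.27) missed the threshold with all libraries (limma adjusted p = 0.183). Without the 7 libraries of the shared profile it was -1.24 and passed (adjusted p = 0.0114). The fit took a common spread over 10-cell pools, larger pools and bulk RNA. With all libraries, Anxa6 ranged from 8.93 to 130 TPM in the larger pools, and this entered the spread. The standard error was 0.684 with all libraries and 0.374 without the 7. The miss therefore does not measure the spread of the 10-cell pools alone. Over the other settings for Anxa6 the adjusted p ran from 0.00158 to 0.788. With this gene, 3 of 9 annexins were called without the 7 libraries, beside 49.9% of genes (8.96% higher, 40.9% lower).

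The other 6 annexins did not pass the test in 10-cell pools with all libraries, where the larger pools again entered the spread. Anxa1 had 4301 to 9630 TPM (median 5385), above both bulk libraries in every pool, with a difference of 0.50 (95% interval -0.059 to 1.06, limma adjusted p = 0.142). Anxa2 had 3483 to 5666 TPM (median 4419), also above both bulk libraries throughout, with 0.39 (0.037 to 0.73, adjusted p = 0.0718). Without the 7 libraries these differences were 0.52 (adjusted p = 0.0596) and 0.41 (adjusted p = 0.0530). Over all alternative settings the adjusted p ran from 0.000538 to 0.721 for Anxa1, from 5.12e-05 to 0.481 for Anxa2 and from 0.00182 to 0.981 for Anxa5, and the lowest of each was that with array weights, under which 76.2% of all genes were called. For Anxa4 (759 to 1195 TPM), Anxa5 (710 to 1229 TPM), Anxa7 (78.9 to 210 TPM) and Anxa8 (56.7 to 296 TPM) the intervals covered 0, and the widest, that of Anxa8, ran from -0.70 to 1.02. Their differences with all libraries and without the 7 were 0.0020 and 0.03 for Anxa4, 0.34 and 0.33 for Anxa5, 0.12 and 0.12 for Anxa7 and 0.16 and 0.25 for Anxa8. The direction of Anxa4 and Anxa5 turned under quantile normalization, to -0.30 and -0.01.

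Pools of 100 cells fell into 2 kinds. Pools 1 to 3 belong to the shared profile, and their annexin values lay close together, for example 4940, 4912 and 4807 TPM for Anxa1. Pools 4 to 6 had 9671, 8402 and 8608 TPM of Anxa1, more than in either bulk library or any other 100-cell pool. Anxa6 was at 122, 130 and 113 TPM in pools 1 to 3 and at 8.93, 23.5 and 16.8 TPM in pools 4 to 6.

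Anxa11 was at 23.7, 21.2 and 21.8 TPM in pools 1 to 3 and at 1.55, 1.48 and 1.96 TPM in pools 4 to 6. The median of pools 1 to 3 was 14.1 times that of pools 4 to 6 for Anxa11 and 7.28 times for Anxa6, whereas the median of pools 4 to 6 was 1.75 times that of pools 1 to 3 for Anxa1 and 1.34 times for Anxa3. In all, pools 4 to 6 lay wholly below pools 1 to 3 in 5 annexins (Anxa2, Anxa5, Anxa6, Anxa7 and Anxa11) and wholly above in 2 (Anxa1 and Anxa3), while Anxa4 and Anxa8 overlapped. Over all genes tested 58.8% lay wholly below and 15.9% wholly above. The 10 epithelial genes summed to 31250 to 33010 TPM in pools 1 to 3 and to 7935 to 11764 TPM in pools 4 to 6, with none at 0 throughout either set, and their part in these differences was not tested.

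Against bulk RNA, the 6 pools of 100 cells gave 3 called annexins of 9, beside 32.2% of genes (7.3% higher, 24.9% lower). Anxa3 was higher by 0.52 (95% interval 0.15 to 0.89, limma adjusted p = 0.0309), with 3767, 3832, 3574, 4317, 5102 and 5065 TPM in pools 1 to 6. Anxa6 was lower by 2.11 (-3.63 to -0.59, adjusted p = 0.0330), and Anxa11 was lower by 2.86 (-4.66 to -1.07, adjusted p = 0.0177). All 6 pools lay above bulk RNA for Anxa3 and below it for Anxa6 and Anxa11. Anxa1, with every pool above bulk RNA, just missed the threshold at 0.75 (0.15 to 1.35, adjusted p = 0.0503). For Anxa2, Anxa4, Anxa5, Anxa7 and Anxa8 the intervals covered 0, with differences from -0.47 (Anxa8) to 0.14 (Anxa2), and from -0.69 (Anxa8) to 0.03 (Anxa2) without the 7 libraries.

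With pools 4 to 6 as the only 100-cell pools and the other shared-profile libraries also left out, 4 annexins were called, beside 55.9% of genes (10.4% higher, 45.5% lower). Anxa1 was then higher by 1.18 (0.63 to 1.73, limma adjusted p = 0.00123) and Anxa3 by 0.71 (adjusted p = 0.00101), whereas Anxa6 was lower, at -3.57 (adjusted p = 1.07e-05), and Anxa11 at -4.43 (adjusted p = 4.00e-05). With pools 1 to 3 as the only 100-cell pools no annexin was called, beside 7.1% of genes. Anxa1 was then at 0.32, Anxa6 at -0.66 and Anxa11 at -1.30. The median difference of all genes was -0.79 with all libraries and -1.17 without the 7. Quantile normalization moved the first to 0.05 and the calls from 22.7% higher and 77.3% lower to 54.8% and 45.2%, with Anxa6 at -1.83 and Anxa11 at -2.17, both called, Anxa3 at 0.38 not called (adjusted p = 0.0677) and Anxa4 called at -0.47 (adjusted p = 0.0488). Without either bulk library no annexin was called (3.27% and 4.34% of genes were) and the lowest adjusted p was 0.118, for Anxa11, although the differences stayed at 0.51 and 0.53 for Anxa3, -2.14 and -2.08 for Anxa6 and -2.75 and -2.98 for Anxa11. Over all alternative settings the adjusted p ran from 0.000164 to 0.512 for Anxa1, from 4.54e-05 to 0.309 for Anxa3, from 9.43e-06 to 0.409 for Anxa6 and from 1.59e-05 to 0.276 for Anxa11.

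Between pools of 10 and of 100 cells, 0 of 9 annexins were called by limma with all libraries, beside 0.00811% of genes, and 3 had an unadjusted p under 0.05, as did 7.29% of all genes. Without the 7 libraries 3 were called, beside 14.7% of genes (10.4% higher, 4.34% lower in the 10-cell pools). Anxa6 was then higher in the 10-cell pools by 2.32 (1.65 to 2.99, adjusted p = 0.000325) and Anxa5 by 0.50 (0.18 to 0.83, adjusted p = 0.0362), and Anxa1 was lower, at -0.66 (-1.05 to -0.26, adjusted p = 0.0263). For Anxa6 no 10-cell pool (37.6 TPM or more) came as low as pools 4 to 6 (23.5 TPM or less). Anxa11 differed by 1.29 (0.31 to 2.27, adjusted p = 0.0720) without the 7 libraries and by -0.12 (-1.22 to 0.98) with them.

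**Figure D3:**
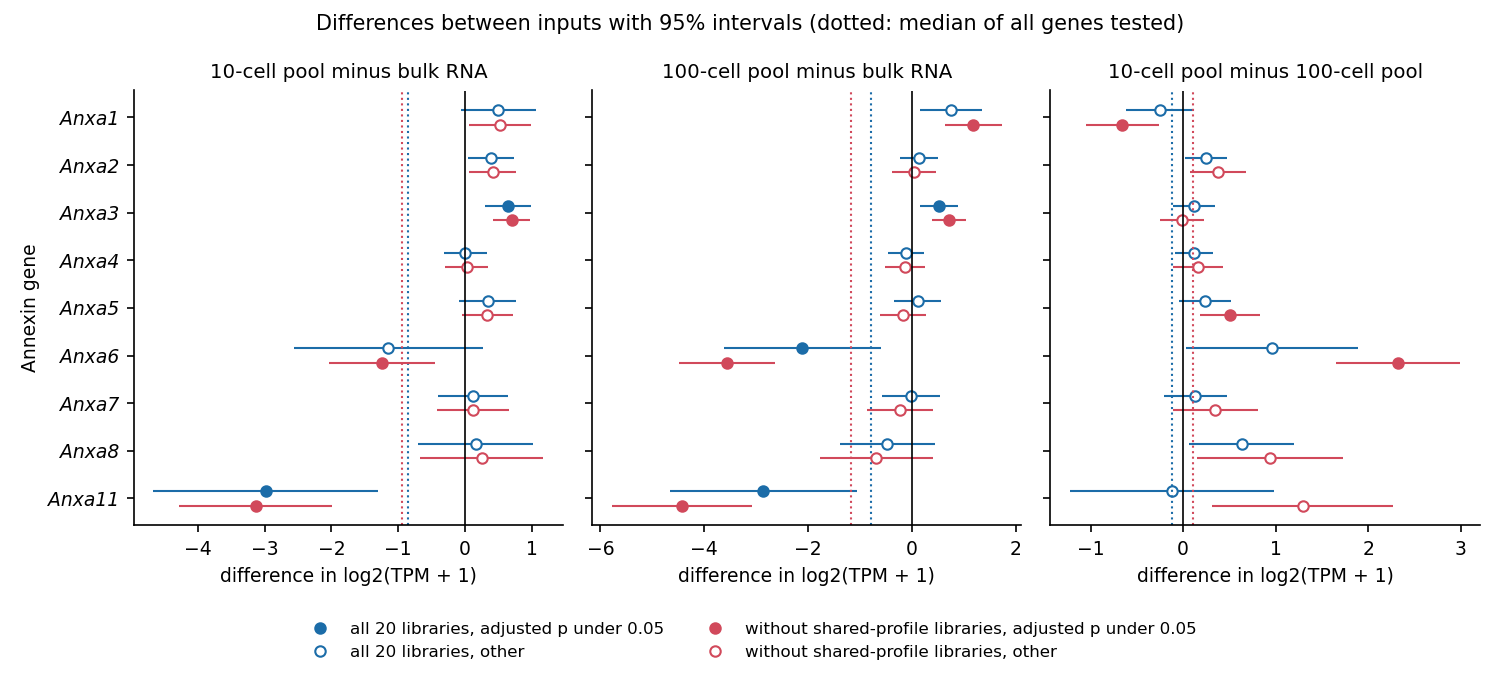
Differences in log2(TPM + 1) between inputs for each annexin with 95% intervals from limma, for all 20 libraries (blue) and without those of one shared profile (red), filled where the adjusted p was under 0.05. Anxa11 lies at -2.99 and -2.86 against bulk RNA, and the dotted lines show the median of all genes, -0.86 and -0.79 with all libraries.

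Transcript length and base composition moved with these differences. Over the 11403 genes tested with a coding transcript, the difference between 10-cell pools and bulk RNA had a Spearman rho of -0.61 with transcript length and -0.16 with GC content, or -0.59 and -0.18 without the 2 pools of the shared profile. For 100-cell pools 4 to 6 the values were -0.50 and -0.34, and for pools 1 to 3 they were -0.67 and 0.03. Among the annexins Anxa6 (2489 bases, 54.0% GC) and Anxa11 (2394 bases, 55.3% GC) were longer and richer in GC than Anxa1 (1674 bases, 43.6%) and Anxa3 (1595 bases, 47.3%), but Anxa7 had the longest transcript (2904 bases, 48.6%) and a difference of 0.12 in 10-cell pools. These are correlations across genes of the same libraries, and their part in the annexin differences was not tested.

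In single cells Anxa1 to Anxa5 were listed above 0 in all 11 cells. Of 99 annexin values, 84 were at 1 TPM or more and 8 were listed at 0, and all 8 zeros fell on Anxa6, Anxa7 and Anxa8. Without cells 6 and 9, 66 of 81 values were at 1 TPM or more. In the 10-cell pools all 108 values reached 1 TPM.

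Anxa1 ranged from 1151 TPM in cell 3 to 7390 TPM in cell 1 (median 3010), Anxa2 from 456 TPM in cell 11 to 5631 TPM in cell 1 (median 3156) and Anxa3 from 524 TPM in cell 8 to 5133 TPM in cell 1 (median 3131). The ranges of these 3 genes overlapped almost wholly, so no order among them held in single cells, and Anxa1 was above Anxa4 in all 11 cells. Anxa4 ran from 449 TPM to 2023 TPM, its highest in cell 11, where Anxa2 was lowest. Anxa5 ran from 237 TPM in cell 10 to 1159 TPM in cell 1.

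Anxa6 was listed at 0 in cells 3, 8 and 10, was at 0.554 TPM in cell 11 and was between 33.1 and 120 TPM in the other 7 cells. Anxa7 was listed at 0 in cells 10 and 11, was at 0.949 and 2.88 TPM in cells 7 and 8 and was between 46.8 and 136 TPM in the other 7. Anxa8 was listed at 0 in cells 3, 8 and 11, was at 0.419 TPM in cell 2 and was between 47.0 and 101 TPM in the other 7. Each of these 3 genes was at 3 TPM or less in 4 cells, and cells 8 and 11 were among the 4 for all 3 genes.

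Anxa11 was at 0.524 to 0.731 TPM in cells 5, 8, 10 and 11 and between 3.44 and 14.5 TPM in the other 7. Cells 3, 8, 10 and 11 were those with an annexin listed at 0, and they had between 3919 and 5631 genes at 1 TPM or more, beside 4995 to 8598 in the other cells outside the shared profile and 11438 and 11223 in cells 6 and 9. How many genes were detected in a cell thus went with the zeros only in part. Cell 7 had 4995 genes and no annexin at 0, while cells 3 and 10, with zeros, had 5631 and 5361. The part of detection in the zeros was not tested.

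**Figure D4:**
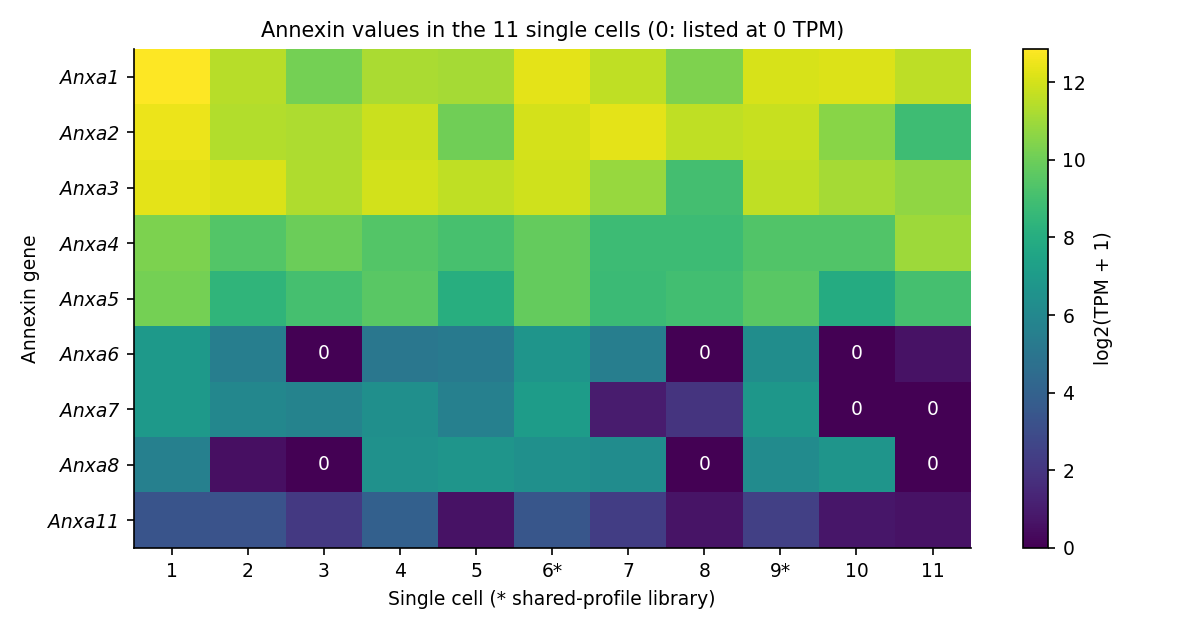
log2(TPM + 1) of each annexin (rows) in each of 11 single cells (columns), with 0 printed where the table lists 0 TPM and an asterisk on cells 6 and 9 of the shared profile. Anxa1 to Anxa5 are above 0 in every cell, and the 8 zeros lie in cells 3, 8, 10 and 11.

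The medians of all 9 annexins were lower in single cells than in 10-cell pools, beside 85% of the genes tested (85.3% without the libraries of one profile, where again all 9 annexins were lower). The ratio of the medians was nearest to 1 for Anxa2 (0.714), Anxa8 (0.705) and Anxa4 (0.690), and was lowest for Anxa7 (0.368) and Anxa6 (0.388). Without the shared-profile libraries the ratios ran from 0.328 (Anxa7) to 0.685 (Anxa4). Over all genes tested the median ratio was 0.395 with all libraries and 0.0792 without those of the shared profile. Because genes of the table held as little as 54.2% of TPM in a single cell, each cell was also rescaled to a fixed total, and all 9 medians stayed lower.

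In single cells Anxa1 to Anxa5 had a larger spread than 20.8% (Anxa4) to 67.4% (Anxa2) of the genes set beside them. Those genes were not matched to the annexins in level, and the means of Anxa1 to Anxa5 ran from 580 to 3417 TPM. Over the 11 cells the SD of log2(TPM + 1) was 0.81 for Anxa1, 1.08 for Anxa2, 0.92 for Anxa3, 0.65 for Anxa4 and 0.72 for Anxa5, beside a median of 0.89 over the 1195 genes never at 0 with a mean of at least 100 TPM. Without cells 6 and 9 it was 0.83, 1.16, 0.99, 0.72 and 0.72 in the same order, beside a median of 0.93 over 1162 such genes. In the 12 pools of 10 cells the SD was 0.20 for Anxa3 and Anxa4, 0.22 for Anxa2 and 0.23 for Anxa5, below the median of 0.32. Anxa1 at 0.33 and Anxa7 at 0.35 were above that median, and Anxa8 at 0.64 exceeded 92.9% of such genes. The mean of Anxa8 in these pools was 124 TPM, near the cutoff of 100 TPM. Anxa6 (mean 90.7 TPM) and Anxa11 (mean 7.06 TPM) fell below the cutoff and were left out. Anxa8 reached 296 TPM in pool 11 and 56.7 TPM in pool 8. Without pools 5 and 12 the SD was 0.35 for Anxa1, 0.15 for Anxa3 and 0.67 for Anxa8.

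The binding partners of the abundant annexins were abundant too. S100a10, whose protein joins Anxa2 in a tetramer, had 724 to 949 TPM in the processing libraries, 0.240 to 0.317 of the Anxa2 level. In the input series it had 1854 and 1906 TPM in bulk RNA, 1852 to 1966 TPM in 100-cell pools 1 to 3 and 3398 to 4481 TPM in pools 4 to 6. The ratio of S100a10 to Anxa2 was 0.535 and 0.549 in bulk RNA, 0.455 to 0.479 in pools 1 to 3 and 0.893 to 1.52 in pools 4 to 6, and the latter sets did not overlap. Against bulk RNA, S100a10 differed by 0.74 in 10-cell pools (limma adjusted p = 0.124) and by 0.55 in 100-cell pools (adjusted p = 0.291) with all libraries, and passed the threshold without the 7 at 0.87 (adjusted p = 0.0260) and 1.08 (adjusted p = 0.0180).

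S100a11, whose protein binds the tail of Anxa1, had 3128 and 3167 TPM in bulk RNA, 3244 to 9587 TPM in 10-cell pools (3562 to 9587 TPM without pools 5 and 12) and 6326 to 7787 TPM in 100-cell pools 4 to 6. Its ratio to Anxa1 was 0.795 and 0.811 in bulk RNA and 0.735 to 0.838 in pools 4 to 6, where both genes were high together. In 100-cell pools 1 to 3 S100a11 had 3322 to 3540 TPM, and the ratio was 0.672 to 0.736, which just overlapped that of pools 4 to 6. In 10-cell pools the ratio ran from 0.583 to 1.55. In the processing libraries S100a11 had 2055 to 2718 TPM and the ratio was 2.70 to 3.90. In single cells the same ratio ran from 0.356 to 6.37. Against bulk RNA, S100a11 missed the threshold in 10-cell pools with all libraries (0.89, limma adjusted p = 0.0583) and passed it without the 7 (1.03, adjusted p = 0.00554). In 100-cell pools the corresponding differences were 0.64 (adjusted p = 0.203) and 1.16 (adjusted p = 0.00647).

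Of the 26 tested genes on the list of partners, receptors and membrane-repair genes, 11 were called in 10-cell pools against bulk RNA, 2 higher and 9 lower, with a median of -0.61. Over all genes 39.4% were called, with a median of -0.86. The lowest adjusted p values were those of Ano6, a phospholipid scramblase (-3.0, adjusted p = 0.000909), Capn1, a calpain protease (-3.10, adjusted p = 0.00140) and Rasa1, the partner of Anxa6 (-1.89, adjusted p = 0.00188). In 100-cell pools against bulk RNA 11 were called, 3 higher and 8 lower, with a median of -0.60, beside 32.2% of all genes and a median of -0.79. Here Capn2, another calpain (-2.23, limma adjusted p = 0.00332), Sri, or sorcin, which binds Anxa7 (0.93, adjusted p = 0.00336), and Pdcd6ip, or ALIX, an ESCRT adaptor (-2.31, adjusted p = 0.00895), were the first 3.

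Without the 7 libraries 16 (5 higher) and 18 (6 higher) of the 26 partner genes were called in these comparisons, beside 49.9% and 55.9% of all genes. Between pools of 10 and 100 cells 0 partner genes were called by limma with all libraries, 1 at an unadjusted p under 0.05 (7.29% of all genes). Without the 7 there were 3, beside 14.7% of all genes, which were Capn2 (0.93), Xkr8 (-1.22), a scramblase, and Pdcd6ip (1.19). The formyl peptide receptors of Anxa1, Fpr1 and Fpr2, and the muscle repair gene Trim72 had no value in either table.

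Over the 20 libraries of 10 or more cells and bulk RNA, each annexin was set beside all 7203 genes with a mean of at least 10 TPM. Anxa11 was most like Atp9a (Spearman rho 0.97) and Hnrnpl (0.97), and Anxa6 was most like Aars (0.97) and Surf4 (0.96). Anxa3 was most like Dtd1 (0.91) and Rpl13 (0.89), Anxa1 like Ndufb5 (0.88) and Clybl (0.88) and Anxa2 like Arl2 (0.87) and Tor2a (0.83). Anxa7 followed BC005624 (0.84) and Carkd (0.80), Anxa5 followed Cluap1 (0.79) and Rab13 (0.78), Anxa8 followed Ccdc66 (0.79) and Tfam (0.75) and Anxa4 followed Nudt12 (0.77) and Zfp36 (0.75).

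No annexin was among the 2 genes most like another annexin, a strict rank among so many genes. Between annexins the highest rho was that of Anxa6 with Anxa11, 0.89 over the 20 libraries and 0.85 without those of one profile. The lowest was that of Anxa3 with Anxa11, -0.89 and -0.78. Without the libraries of one profile, 15 libraries remained, and Ndufb5 stayed first for Anxa1 (0.94) and BC005624 for Anxa7 (0.83), whereas Anxa6 was then closest to Wdr45b (0.98) and Mpzl3 (0.97). Anxa3 was then closest to Faim and Smdt1 (both 0.86), Anxa4 to Eva1b (0.90) and Dusp1 (0.875), Anxa5 to Tnfrsf12a and Zfp637 (both 0.875) and Anxa8 to Thap3 (0.85) and Ccdc66 (0.83). The points of these correlations share the division into pools and bulk RNA, so they describe the input as much as the gene.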

How the data were processed

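Per the labels, RNA was amplified with SMART-Seq v4, and the submitters' processing notes name STAR (2.52), featureCounts and the mm10 build. The deposited values are TPM per gene, which the authors computed from upper-quartile normalized gene counts in 2 tables, 1 for the 12 processing libraries and 1 for the 31 input libraries. Whether counting used strand is not given in the sources used here. TPM keeps no depth, so precision was judged from the spread between libraries alone. No column of values was left unused (0 columns).

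Genes at 1 TPM or more in at least 3 libraries of a table were tested on log2(TPM + 1) with limma 3.58.1 (trend, R 4.3.3; 12159 and 12325 genes), which was checked on simulated data. A fold on this scale understates the change of low genes. Calls are at a Benjamini-Hochberg adjusted p of 0.05 over all genes tested. Tests stayed within a table, and single cells were described without a test. Gene positions and transcript lengths are from GENCODE for GRCm38 and promoters from RefSeq. Other steps used Python 3.11.15.

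All 9 annexins are named, with the pair of conditions of the largest difference in the processing experiment, and from a list of 30 partner genes the 3 of lowest adjusted p in each comparison with a call. For each annexin the 2 genes of highest Spearman rho are named. An allele of the mouse model and the genes most like Anxa2 and Anxa11 over 15 libraries are not reported here. The members and lists were chosen with earlier results of these data known. Alternatives were the pseudocount, the filter, quantile normalization, rescaled TPM, limma without trend or with array weights per input, other thresholds, left-out libraries and a replicate block.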

Additional observations from a re-analysis of the deposited data

Results flagged for a closer look

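Among the 6 pools of 100 cells, the lowest value lay far from the other 5 for a pair of annexins, by a Dixon test at the 95% level run on 11 genes (the 9 annexins, S100a10 and S100a11). Anxa2 was at 2946 TPM in 100-cell pool 4, below 3804 to 4147 TPM in the other pools, with a gap of 0.715 of the range. Anxa8 was at 36.0 TPM in the same pool, below 74.8 to 87.4 TPM in the others, with a gap of 0.755 of the range. Chance alone gives such a gap in about 1 of 20 groups if all values come from a single normal population. The 6 pools hold both kinds of profile described above, so this rate need not hold for them.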

How the results depend on the processing

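The annexin count among processing conditions was 0 under every alternative tried, leaving out any of the 12 libraries included, and so was that of the partner genes. In the input series the count of annexins in 10-cell pools against bulk RNA (2) became 6 with array weights, 4 without 100-cell pools 4 to 6 and 0 with a replicate block, and ranged from 0 to 0 on leaving out either bulk library. Calls over all genes moved too, from 39.4% to 76.2%, 46.1%, 6.31% and 11% to 12.4%. Against bulk RNA the 100-cell pools (3 annexins) gave 0 at a threshold of 0.01, 0 without pools 4 to 6, 0 with the block and 0 to 0 without a bulk library, while the share of all genes went from 32.2% to 12.6%, 7.1%, 0% and 3.27% to 4.34%. Between 10-cell and 100-cell pools (0 annexins) there were 4 without pools 1 to 3 (17.6% of all genes) and 3 without the libraries of one profile (14.7%). Under the same settings, with the same shares of all genes, the partner genes in 10-cell pools against bulk RNA (11) became 22 with array weights, 2 with the block and 3 to 5 without a bulk library. In 100-cell pools (11) they became 4 at 0.01, 19 with array weights (68.3% of all genes), 2 without pools 4 to 6, 18 without pools 1 to 3 (55.7%), 18 without the shared profile (55.9%), 0 with the block and 0 to 0 without a bulk library. Between the pools (0) they became 6 without pools 1 to 3 and 3 without the shared profile. The cause of these changes was not tested.

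Directions turned in these cases, all log2 differences. In 10-cell pools against bulk RNA, Anxa4 was -0.30 and Anxa5 -0.0092 with quantile normalization, and Anxa4 ran from -0.0024 to 0.0064 on leaving out either bulk library. In 100-cell pools against bulk RNA, Anxa4 was 0.041 with the block, Anxa5 was -0.25 with quantile normalization, -0.17 without pools 1 to 3 and -0.17 without the shared profile, and Anxa7 was 0.24 with quantile normalization, 0.20 without pools 4 to 6, 0.082 with the block and -0.070 to 0.040 on leaving out either bulk library. Between the pools, leaving out pools 4 to 6 gave 0.18 for Anxa1, -0.048 for Anxa5, -0.49 for Anxa6 and -0.084 for Anxa7. Leaving out pools 1 to 3 gave -0.070 for Anxa3 and 1.44 for Anxa11, and leaving out the shared profile gave -0.011 and 1.29. Anxa11 was also 0.068 with quantile normalization and 0.025 with the block.

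Of the remaining values of single genes, 528 kept their direction and side of the threshold, 22 came to pass it and 23 ceased to. The count of single-cell values at 1 TPM or more (84) was 91 for values above 0, 80 at 5 TPM and 66 without cells 6 and 9. Leaving out the shared profile and the block in the input series were chosen after seeing the data. In the input series no label says that same-numbered libraries of different inputs belong together. The block there is therefore no check of a known pairing, and the ranges of adjusted p over all alternative settings include it. Same-numbered libraries deviated together at r over 0.1 in 2 of 18 pairs of the processing experiment and 1 of 10 of the input series. In the processing experiment r ran from -0.042 to 0.23, and only Mock 2 with Pre-enriched 2 was below 0. In the input series it ran from -0.63 to 0.33. A weak pairing by replicate number in the processing experiment is therefore not settled by these values. The unknown depth of each library, the 2 bulk libraries and the 1 line limit every comparison.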
